A study of Bos taurus with 6 samples.

Results

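Transcripts of 4 genes that control muscle growth were followed in the longissimus dorsi, a back muscle, of male Hanwoo (Korean cattle). They are insulin-like growth factor 1 (IGF1, ENSBTAG00000011082), insulin-like growth factor 2 (IGF2, ENSBTAG00000013066), the growth hormone receptor (GHR, ENSBTAG00000001335) and myostatin (MSTN, ENSBTAG00000011808). The members were chosen by these Ensembl IDs, and all 4 of 4 were found among the 24616 gene rows of each library. The pairing of each ID with its gene symbol was given with the choice of members and was not checked against a table here. Poly(A) RNA had been sequenced from 3 intact males (bulls 20, 22 and 23) and 3 castrated males (steers 439, 456 and 458), 1 library per animal. The bulls were all 746 days old, and steers 439, 456 and 458 were 996, 950 and 930 days old. Castration and age therefore cannot be told apart in any value below. The age at castration is not given in the sources used here.

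Growth hormone from the pituitary binds GHR on its target cells and signals through the kinase JAK2 and STAT5 transcription factors, and IGF1 is a main product of that signal, made in the liver for the circulation and locally in muscle. IGF1 and IGF2 both act through the IGF1 receptor to promote growth and survival of muscle cells, and IGF2 is an imprinted gene best known for its role in fetal growth. Myostatin is a secreted member of the TGF-beta family that limits muscle mass, and cattle that lack a working MSTN gene are double-muscled.

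The gene counts summed to between 17027226 (Steer 456) and 27490776 (Steer 458) per library, and bulls lay within that range. Steer 456 stood apart from the other animals, with 657 tested genes at least 2-fold above all 5 others, against 14 to 45 genes for each of the rest. Levels are given as CPM, counts per 1e6 counts after TMM scaling, which corrects for differences in library composition. They are not corrected for transcript length, so the level of one gene is not compared with that of another. In a whole piece of muscle, fewer cells that make a transcript and less RNA per cell cannot be told apart. The tissue label was not checked against marker genes here.

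None of the 4 genes passed the test between bulls and steers with all 6 animals. By the same quasi-likelihood test of edgeR, with p adjusted by Benjamini-Hochberg over 12769 tested genes and a threshold of 0.05, 4.10% of all genes passed, 2.04% as higher and 2.06% as lower in bulls, against 0 of 4 here. At an unadjusted p under 0.05 the count was also 0 of 4, where 22.4% of all tested genes passed. DESeq2 and limma voom likewise called 0 of 4, where they called 1507 and 429 of the 12769 tested genes. With 4 genes, a count of 0 lies near this background. The 3 values of one group lay entirely beyond the other group's in 29.6% of all tested genes and in 0 of the 4. The genes differed in how the single animals were arranged. MSTN split the steers, IGF2 had its highest value in the same steer as MSTN, IGF1 was scattered at very low counts, and GHR was nearly even in all 6 animals.

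**Figure D1:**
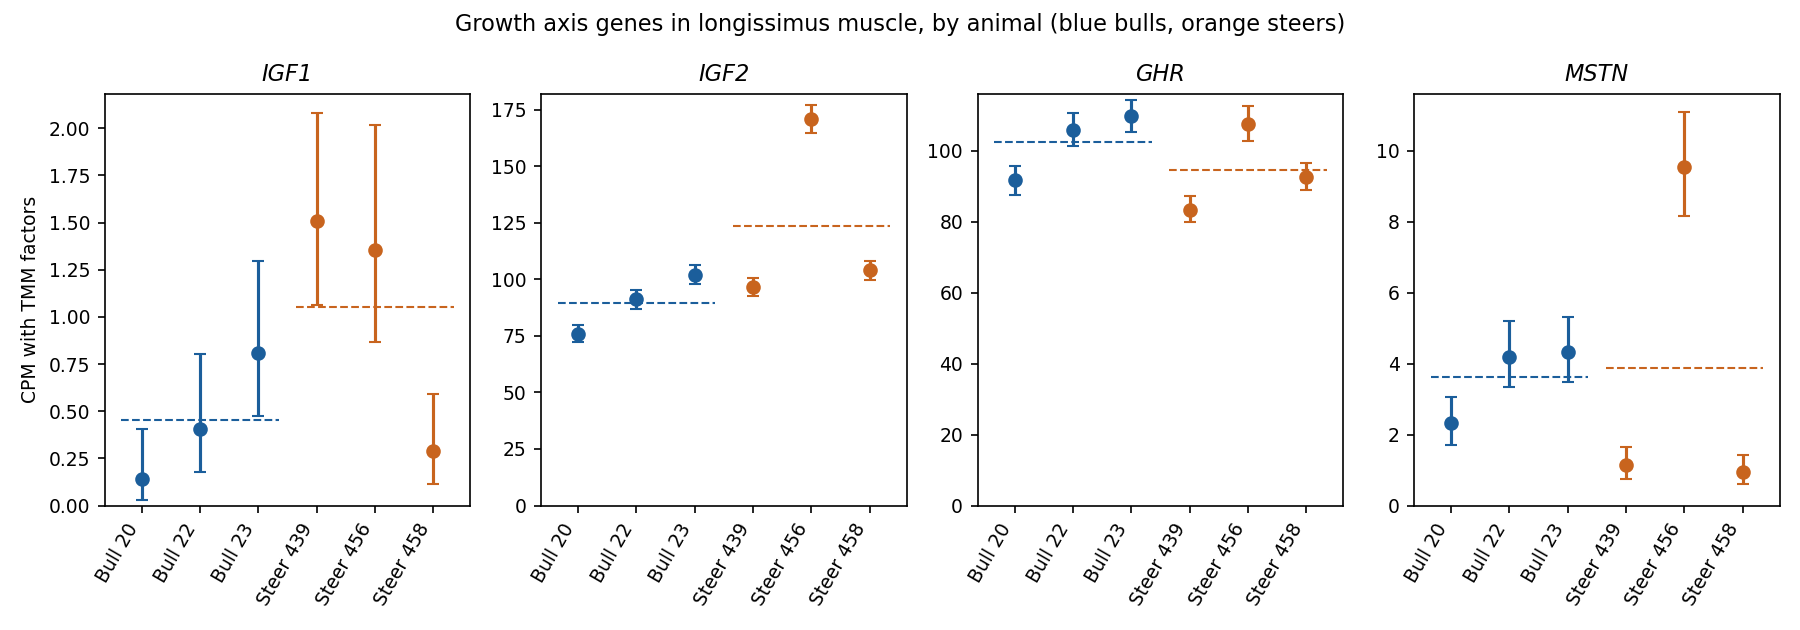
CPM with TMM factors (vertical axes from 0, a scale of its own for each gene) of IGF1, IGF2, GHR and MSTN in each bull (blue) and steer (orange). Points are single libraries with 95% Poisson intervals, which cover counting error only, and dashed lines are group means. Steer 456 is the highest animal for IGF2 and MSTN, while the other 2 steers are the lowest for MSTN.

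The 2 ligands came out higher in steers on average, neither beyond the spread between animals. IGF1 was counted with very few reads: 3 in Bull 20, 8 in Bull 22 and 17 in Bull 23, against 37 in Steer 439, 24 in Steer 456 and 7 in Steer 458. Scaled for depth, these were 0.139, 0.408 and 0.811 CPM in the bulls and 1.51, 1.35 and 0.287 CPM in the steers. Steers 439 and 456 thus lay above every bull, and Steer 458 lay between Bull 20 and Bull 22. The mean was 0.453 ± 0.338 CPM in bulls and 1.05 ± 0.666 CPM in steers (SD, n = 3). On the log2 scale the fitted difference, bull minus steer, was -1.20 ± 0.77 (SE), with an adjusted p of 0.407 in edgeR. Its 95% interval ran from -2.96 to 0.56, so that bulls could have had between 0.129 and 1.47 times the level of steers.

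Few reads stood behind each of these values. The 95% Poisson interval of the 3 reads in Bull 20 ran from 0.619 to 8.77 reads and that of the 7 reads in Steer 458 from 2.81 to 14.4 reads, so these libraries and Bull 22 were not distinguishable at this depth. The 37 reads in Steer 439 had an interval of 26.1 to 51.0 reads, and in CPM this interval (1.06 upward) lay above that of Bull 22, which ended at 0.804 CPM. The interval of Bull 23, 0.472 to 1.30 CPM, overlapped those of Steer 439 and Steer 456 (0.868 upward), so these libraries were not resolved from each other. Within the steers IGF1 was highest in the oldest and lowest in the youngest animal, an order in 3 animals that was not tested. The order of Steers 439 and 456 is not resolved, as their counting intervals overlapped. For IGF2, GHR and MSTN the highest steer was Steer 456, which was neither the oldest nor the youngest. IGF1 entered the tests through 3 libraries above the filter on low counts, Bull 23, Steer 439 and Steer 456. Leaving out Bull 23 moved its log2 fold change to -1.95 (edgeR adjusted p = 0.384) and leaving out Bull 20 to -0.78 (edgeR adjusted p = 0.729).

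IGF2 rested on 1641 to 3026 reads per library, so its counting error was small. Its level was 75.9 CPM in Bull 20, 91.2 in Bull 22 and 102.1 in Bull 23, and 96.6 CPM in Steer 439, 170.8 in Steer 456 and 103.9 in Steer 458. Steers 439 and 458 were at the level of Bull 23, the highest bull, with overlapping counting intervals. Steer 456 was alone above the rest, at 1.67 times the highest bull and 1.70 times the mean of the other 2 steers. The group means were 89.7 ± 13.2 CPM in bulls and 123.8 ± 40.9 CPM in steers (SD, n = 3). The fitted log2 difference was -0.46 ± 0.26 (SE; adjusted p = 0.344 in edgeR), with a 95% interval from -1.06 to 0.13.

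The size of the IGF2 difference came mostly from that 1 animal. Without Steer 456 it was -0.16 ± 0.16 (SE; adjusted p = 0.575 in edgeR), and bulls had 0.896 times the level of the remaining steers (95% interval 0.688 to 1.17). Whether the 657 genes raised in Steer 456 have a common source with its IGF2 was not tested.

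GHR, the receptor through which growth hormone reaches the muscle cell, was the most even of the 4. Between 1906 and 2302 reads were counted per library. Its level was 91.6 CPM in Bull 20, 105.8 in Bull 22 and 109.8 in Bull 23, against 83.4 CPM in Steer 439, 107.6 in Steer 456 and 92.7 in Steer 458. The groups interleaved: Steer 456 fell between bulls 22 and 23, Steer 458 was close to Bull 20, and only Steer 439 was below every bull. The means were 102.4 ± 9.57 CPM in bulls and 94.5 ± 12.2 CPM in steers (SD, n = 3), and the log2 difference was 0.12 ± 0.18 (SE; adjusted p = 0.760 in edgeR). The 95% interval, 0.807 to 1.45 times the steers' level in bulls, was the narrowest of the 4 genes on the log2 scale. Differences within that interval, in either direction, remain possible.

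MSTN, the inhibitor of muscle growth, had almost equal group means that described no steer. Its reads numbered 50 in Bull 20, 82 in Bull 22 and 91 in Bull 23, against 28 in Steer 439, 169 in Steer 456 and 23 in Steer 458. In CPM the bulls were at 2.31, 4.18 and 4.34, Steer 439 at 1.14, Steer 456 at 9.54 and Steer 458 at 0.942. Steers 439 and 458 were thus the 2 lowest of the 6 animals and Steer 456 the highest, at 2.20 times the highest bull and 9.15 times the mean of the other 2 steers. The counting interval of Steer 456 (8.15 to 11.1 CPM) lay above those of all other animals, and those of Steers 439 and 458 overlapped each other and lay below that of Bull 20, which began at 1.72 CPM. The means were 3.61 ± 1.13 CPM in bulls and 3.87 ± 4.91 CPM in steers (SD, n = 3), and the log2 difference was -0.08 ± 0.82 (SE), with a 95% interval of -1.95 to 1.79 and an edgeR adjusted p of 0.965.

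The call for MSTN rested on whether Steer 456 was included, and its direction was not stable. Without Steer 456, MSTN was higher in bulls by a log2 fold change of 1.79 ± 0.38 (SE), 3.45-fold with a 95% interval of 1.87 to 6.38 (edgeR adjusted p = 0.0325; higher than both remaining steers in 3 of 3 bulls). That fit called 7.77% of its 13108 tested genes, 4.18% as higher in bulls, so a call is more common there than with all 6 animals. Of its 1019 called genes, 7 had the opposite sign with all animals, and MSTN was among them. Among all 12769 genes tested in both fits, called or not, 1967 had opposite signs. Without Bull 20 the log2 difference was 0.12 (edgeR adjusted p = 0.967), also toward bulls. With all 6 animals the direction depended on the tool: limma voom, which works on log2 values, put the log2 difference at 0.81 ± 0.74 (SE), toward bulls, with a limma adjusted p of 0.577. An arrangement with 1 steer above all bulls and the other 2 below all of them was found in 1047 tested genes (8.20%), and in 509 of these the high animal was Steer 456. MSTN is itself 1 of the 657 genes at least 2-fold above all other animals in Steer 456, and what these genes share was not tested.

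**Figure D2:**
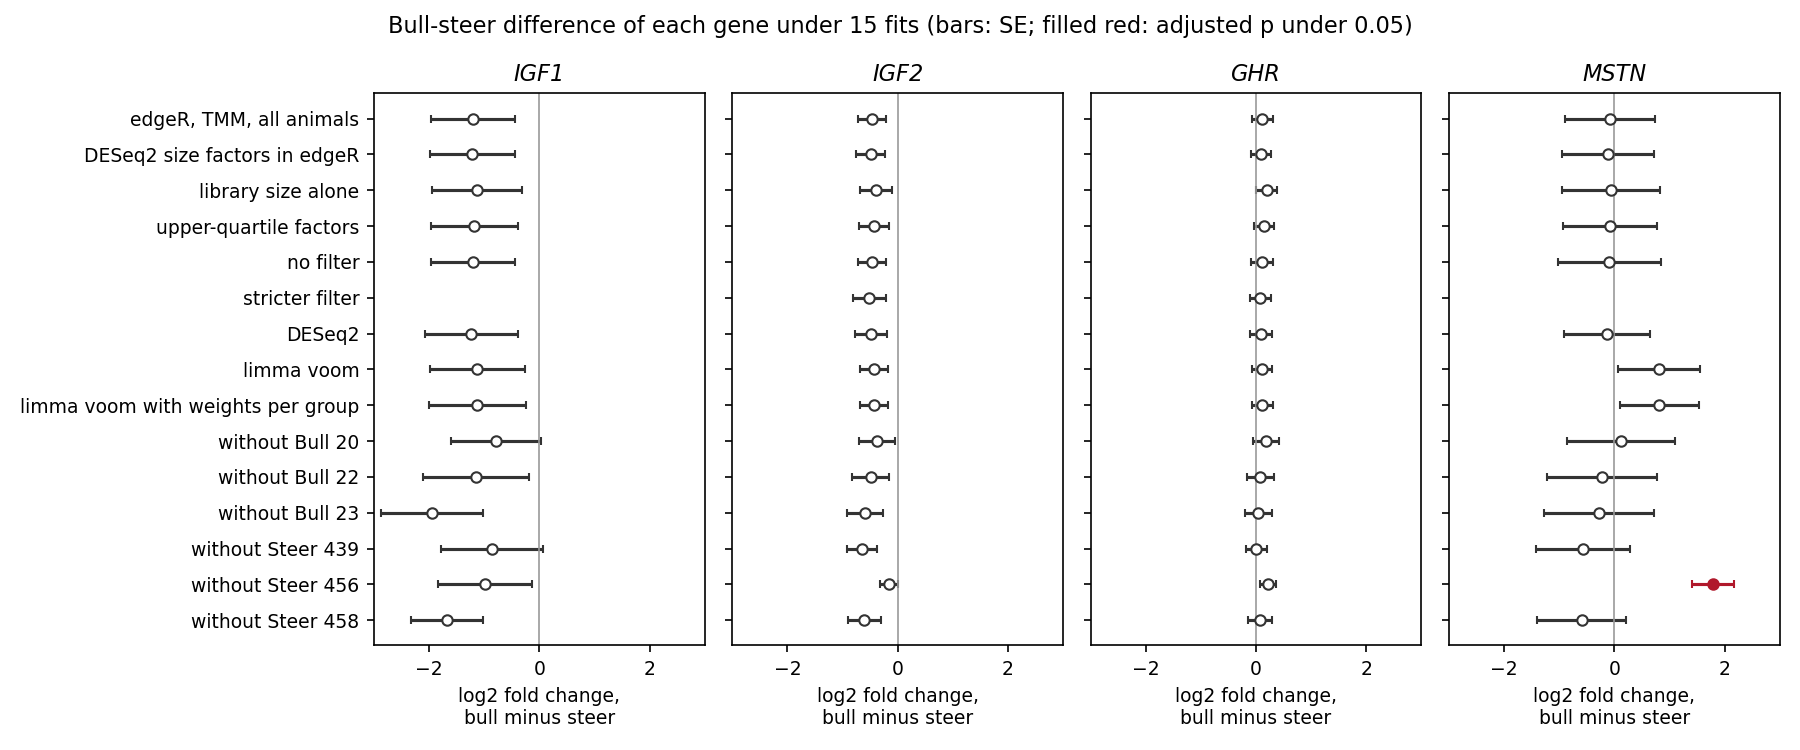
Log2 fold change, bull minus steer (horizontal axes), of each gene under the edgeR fit of all animals, other scalings, filters and tools, and with each animal left out in turn. Points are fitted values, bars are SE, and the filled red point (MSTN without Steer 456, 1.79) is the only one with an adjusted p under 0.05; IGF1 and MSTN have no value under the stricter filter.

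The 4 genes varied within the groups to very different degrees. Among all tested genes the median SD of log2 CPM was 0.18 in bulls and 0.39 in steers, so steers varied more in general. The SD of MSTN was 0.49 in bulls and 1.79 in steers, 3.62 times as large. It exceeded that of 89.7% of the tested genes in bulls and of 99.2% in steers. IGF1 varied widely in both groups, with an SD of 0.98 in bulls and 1.16 in steers, exceeding 98.5% and 94.8% of the tested genes. IGF1 also had the fewest reads of the 4 and the widest counting intervals. IGF2 was near the middle of all genes, with SDs of 0.22 (bulls) and 0.45 (steers) whose ratio of 2.07 stood beside a median ratio of 2.13. GHR was among the evenly expressed genes in steers, where its SD of 0.18 exceeded that of only 16.4% of the tested genes. In bulls its SD was 0.14 and exceeded that of 36.9% of the tested genes. These SDs rest on 3 animals each and were not tested.

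**Figure D3:**
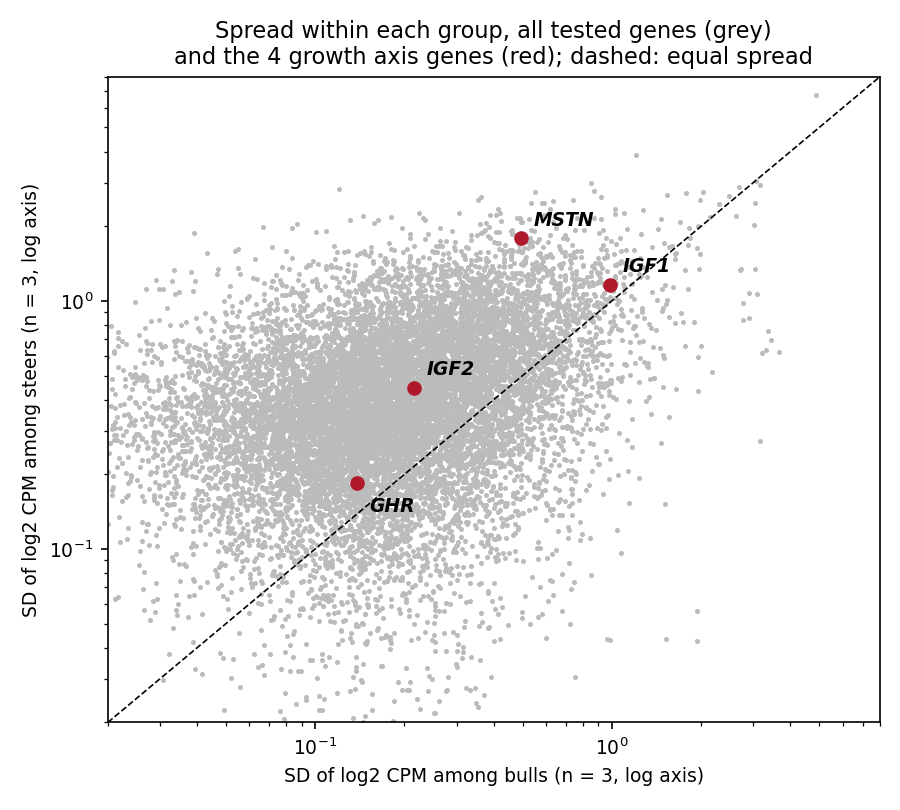
SD of log2 CPM among the 3 bulls (horizontal log axis) and among the 3 steers (vertical log axis), with each tested gene in grey, the 4 growth genes in red and equal spread as a dashed line. MSTN lies high above the line (0.49 and 1.79), while GHR (0.14 and 0.18) and IGF1 (0.98 and 1.16) lie close to it; 190 genes fall outside the axes.

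Setting 2 of the genes against each other within a library removes the scaling between libraries. IGF2 reads per GHR read were 0.829 in Bull 20, 0.862 in Bull 22 and 0.930 in Bull 23, against 1.16 in Steer 439, 1.59 in Steer 456 and 1.12 in Steer 458. The ratio was thus lower in each bull than in any steer, with no overlap between the groups. Only the difference between animals is read here, since the transcripts differ in length. The log2 ratio was -0.20 ± 0.08 in bulls and 0.35 ± 0.28 in steers (SD, n = 3), which makes the ratio 1.46-fold higher in steers. The exact 2-sided permutation p was 0.1, the smallest that 3 animals against 3 allow, and 0.6 after Benjamini-Hochberg adjustment over the 6 pairs of genes. Such a separation was common for ratios to GHR: among the other 12768 tested genes, 24.7% did not overlap between the groups and 16.6% were higher in steers. Without Steer 456 the log2 difference, bull minus steer, was -0.39 in place of -0.54.

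The other 5 ratios overlapped between the groups. The log2 ratio of IGF1 to MSTN, a growth promoter to a growth inhibitor, was -3.17 ± 0.74 in bulls, against -1.35 ± 1.61 in steers (SD, n = 3), with a p of 0.2 in the exact 2-sided permutation test. The log2 difference, bull minus steer, was -1.82 with all animals and -0.95 without Steer 439. The ratio was highest in that steer, where IGF1 had 1.32 reads per MSTN read, while Steer 456 with 0.142 lay between Bull 22 with 0.0976 and Bull 23 with 0.187. IGF2 to MSTN mirrored the arrangement of MSTN, with 21.8 to 32.8 IGF2 reads per MSTN read in bulls, 84.5 in Steer 439, 110.3 in Steer 458 and 17.9 in Steer 456. GHR to MSTN had the same arrangement, 25.3 to 39.6 in bulls against 73.0, 98.4 and 11.3 in Steers 439, 458 and 456. The exact permutation p-values of the ratios of IGF1 to IGF2, IGF1 to GHR, IGF2 to MSTN and GHR to MSTN were 0.5, 0.3, 0.4 and 0.6, and all 6 adjusted values were 0.6.

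**Figure D4:**
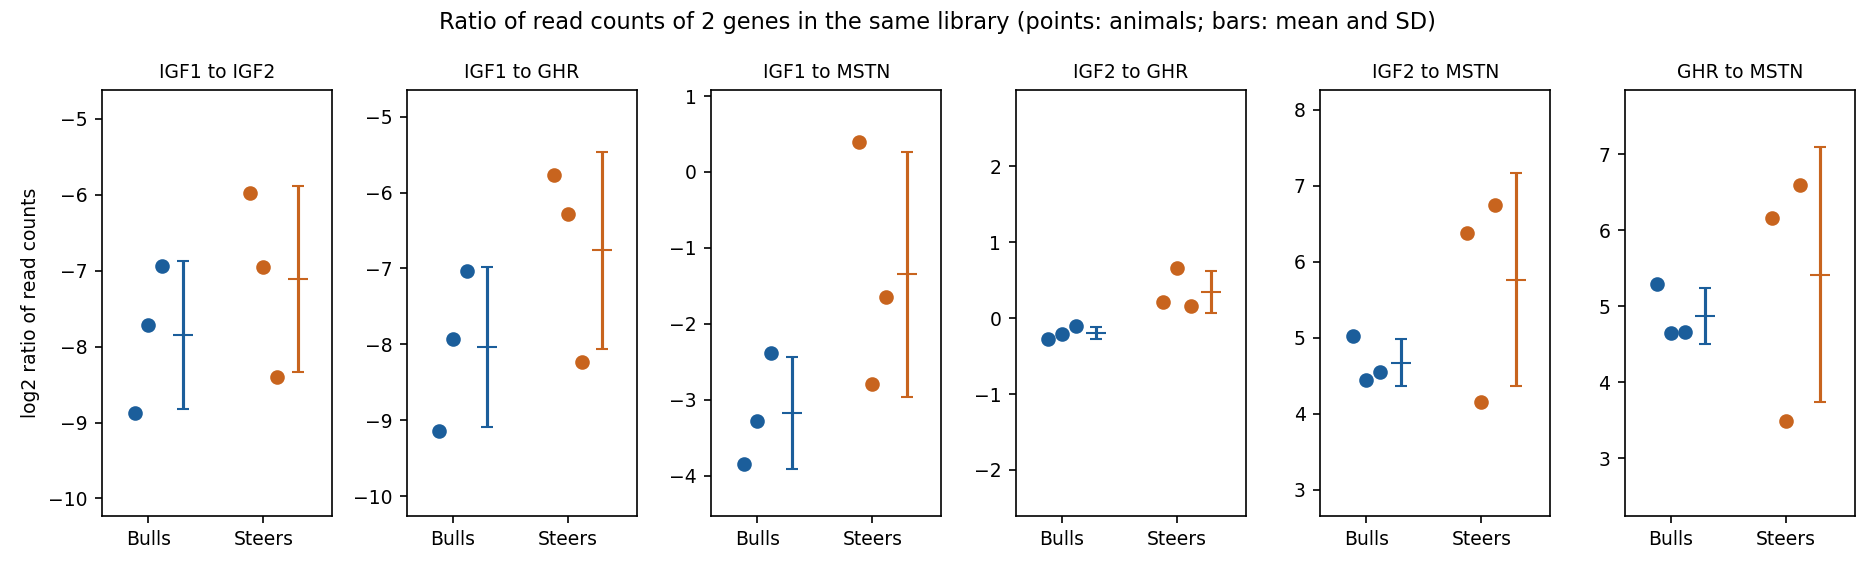
Log2 ratio of the read counts of 2 genes in the same library for the 6 pairs (vertical axes of equal length), with bulls in blue and steers in orange. Points are animals and bars give the mean and SD; for IGF2 to GHR the 3 steers (0.17 to 0.67) lie above the 3 bulls (-0.27 to -0.10), and in the other pairs the groups overlap.

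The profiles of the members over the 6 libraries were compared with each other and with all tested genes. Likeness was measured as the root mean square difference between log2 CPM profiles, each centred on its own mean. Profiles were not scaled for their spread, so 2 evenly expressed genes lie near each other whatever the order of the animals. IGF2 and GHR were the nearest pair at 0.32, and 13.4% of the other tested genes were nearer to IGF2 than GHR was. IGF1 and IGF2 were 0.83 apart, and 6.49% of the other tested genes were nearer to IGF1 than IGF2 was, the smallest share of the 6 pairs when counted from the first gene of each pair in the order IGF1, IGF2, GHR, MSTN. IGF1 and MSTN were the farthest pair at 1.27. The gene nearest to MSTN was ENSBTAG00000013160 at 0.27 over 6 libraries, with 1.86 CPM in Steer 456 and 0.164 to 0.811 CPM in the other animals. Its lowest values rested on few reads, as 3 reads were worth 0.109 to 0.176 CPM before TMM scaling. The nearest to IGF2 was ENSBTAG00000038195 at 0.07, with 12.9 CPM in Steer 456 against 5.64 to 8.85 CPM elsewhere. ENSBTAG00000017727 was nearest to GHR at 0.05, and ENSBTAG00000000559 was nearest to IGF1 at 0.33. These 4 genes were picked for profiles like those of the members, so their arrangement over the animals is given as a description. The files pair no name with these IDs.

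Reads of overlapping genes could touch 3 of the 4 counts. In the RefSeq table of assembly ARS-UCD2.0, which is not the authors' build, IGF2 overlaps the microRNA gene MIR483, IGF1 overlaps the long non-coding RNA gene LOC112446717 and GHR overlaps LOC112443004, while no gene overlaps MSTN. Reads that overlapped more than 1 gene were set apart in a summary row and counted for no gene. They made up 0.399% to 0.590% of all counts per library, summary rows included.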

How the data were processed

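Each library is 1 animal's longissimus dorsi, and the titles give the groups. The authors deposited unnormalized counts of reads for each Ensembl gene. They were made with FastQC, TopHat2 2.0.2 and HTSeq 0.5.3p3 on build UMD3.1, per the submitters' processing notes, and neither annotation release nor strand setting is stated in these sources. The 5 HTSeq summary rows (29.3% to 39.9% of all counts in each file) name no gene and were left out of library sizes and tests. Steer 439 had the lowest share in these rows, 29.3% against 36.4% to 39.9% in the other libraries. The row for reads without a unique alignment held 16.9% of its counts, against 24.5% to 28.2% elsewhere. Whether this difference touched the values of Steer 439 was not tested.

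All 6 libraries entered 1 fit of edgeR 4.0.16 (R 4.3.3; filterByExpr, TMM, robust quasi-likelihood F test, group as the only term), with Benjamini-Hochberg adjustment over 12769 genes at 0.05. The SE was derived from the log2 fold change and its F statistic, and 95% intervals use the t distribution. Log2 CPM used a prior count of 2, and count ratios a pseudocount of 0.5. Alternatives were other scalings and filters, DESeq2 1.42.0, limma 3.58.1 (voom), a ratio pseudocount of 5 and leaving out each animal. The fits were tested only on simulated counts with equal spread in both groups, whereas the steers here varied more than the bulls.

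Members and lists were chosen with earlier results of these data known. Named genes were the 4 members and the nearest profile to each. The reference table pairs 0 of 24616 Ensembl IDs with a symbol, so 7 pathway lists and the cell type markers were not used, and no coordinates or sequences are given. Counting intervals are exact Poisson intervals and cover counting error only.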

Additional observations from a re-analysis of the deposited data

How the results depend on the processing

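GHR kept a positive and IGF1 and IGF2 a negative log2 fold change, none called, in each alternative that gave a value (14 for GHR and IGF2, 13 for IGF1); leaving out 1 animal gave 0.01 to 0.22 for GHR, -1.95 to -0.78 for IGF1 and -0.64 to -0.16 for IGF2. The stricter filter of 5 CPM in 3 libraries left no value for IGF1 and MSTN. MSTN changed sign in 4 of 13 alternatives: 0.81 with limma voom, 0.82 with weights per group, 0.12 without Bull 20 and 1.79 without Steer 456, and leaving out 1 animal gave -0.59 to 1.79. The cause was not tested. The ratio of GHR to MSTN ranged from -1.51 to 0.038 with 1 animal left out, the last without Steer 458; no other ratio changed sign, but with 1 animal left out IGF1 to IGF2 ran from -1.38 to -0.17, IGF1 to GHR from -2.01 to -0.72, IGF1 to MSTN from -2.55 to -0.95, IGF2 to MSTN from -1.90 to -0.60 and IGF2 to GHR from -0.64 to -0.39. The 524 called genes (261 higher, 263 lower in bulls) became 1507 with DESeq2 (653 and 854); with library size alone 124 were lower; leaving out 1 animal gave 7 to 1019 calls in all, the higher from 3 to 548 and the lower from 4 to 598. No paired analysis was possible because bulls and steers share no animal number. With 3 to 37 reads per library, depth limits what can be said of IGF1. A pseudocount of 5 in place of 0.5 moved its log2 ratio to IGF2 from -0.73 to -0.38. It moved IGF1 to GHR from -1.28 to -0.93 and IGF1 to MSTN from -1.82 to -1.40. The ratios without IGF1 moved less, and none changed sign.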

Other observations

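In all 4 genes Bull 20 was the lowest and Bull 23 the highest of the bulls, an arrangement shared by 14.2% of the 12769 tested genes and looked for after the values were seen. It was not tested, and the genes share the same 3 libraries. For IGF1, GHR and MSTN the counting intervals of Bulls 22 and 23 overlapped, so the order of these animals is not resolved there. Steer 456 was the highest of all 6 animals in 2 of the 4 genes, IGF2 and MSTN, and in 28.1% of all tested genes.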
